A study of Mus musculus with 18 samples.

Results

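The aryl hydrocarbon receptor gene Ahr and 3 genes tied to it, Arnt, Ahrr and Tiparp, were followed across 18 RNA-seq libraries of gut CD4 T cells. These 4 genes were chosen by symbol from the 38392 genes of the deposited table, and all 4 passed the filter on low values that left 15472 genes for testing. Donor cells came from C57BL/6 TNa TNb RAG1-/- Foxp3GFP mice, a line cloned from 1 peripherally induced regulatory T cell, so every transferred cell carried the same T-cell receptor. The transferred cells were CD4+ and negative for CD8α and for the Foxp3-GFP reporter, and the hosts were C57BL/6 TCRa-/- TCRb-/- mice, which make no alpha-beta T cells of their own but keep gamma-delta T cells. At 6 weeks after transfer, donor cells were sorted from the small intestine, as lymphocytes of the epithelial layer (IEL) or of the underlying lamina propria (LP). The sort gave 3 populations per site: CD4+CD8α+ cells (DP, double positive), Foxp3+ cells (TR, regulatory) and cells that had stayed CD4+CD8α-Foxp3- (SP, single positive). Each of the 6 groups has 3 libraries. The labels call them biological replicates without naming the animals or giving ages, so p-values measure only the spread between these libraries, which may in part be technical.

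The receptor AHR waits in the cytosol in a complex with the chaperone HSP90 and its co-chaperone p23. On binding a ligand, such as a tryptophan metabolite made by gut bacteria or formed from food, it enters the nucleus, pairs with ARNT and binds DNA at xenobiotic response elements, whose core letters are GCGTG. AHRR, a repressor made under AHR control, competes for ARNT, and TIPARP (PARP7), also made under AHR control, attaches ADP-ribose to AHR and limits its activity. In the gut AHR is known for its part in the upkeep of intraepithelial lymphocytes and of innate lymphoid cells, and in interleukin-22 production by T cells.

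The windows around the start sites of the feedback genes are shown because both inhibitors are textbook AHR targets, and Arnt is shown beside them as the partner that is not. The sequences are RefSeq promoters (build GRCm38.p6), 300 bases long, from 250 before to 50 after the annotated start. Of the 4 genes, 3 matched an entry, and Ahr did not. Each is read 5′ to 3′ on the gene's own strand, and capitals mark GCGTG or its reverse complement CACGC.
Ahrr, chr13:74292282-74292581, minus strand: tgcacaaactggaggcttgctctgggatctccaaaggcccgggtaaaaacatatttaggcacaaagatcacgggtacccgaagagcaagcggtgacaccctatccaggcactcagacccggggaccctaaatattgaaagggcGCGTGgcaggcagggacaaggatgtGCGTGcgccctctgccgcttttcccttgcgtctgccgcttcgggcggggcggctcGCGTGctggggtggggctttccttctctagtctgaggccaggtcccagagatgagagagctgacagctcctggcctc
Tiparp, chr3:65528197-65528496, plus strand: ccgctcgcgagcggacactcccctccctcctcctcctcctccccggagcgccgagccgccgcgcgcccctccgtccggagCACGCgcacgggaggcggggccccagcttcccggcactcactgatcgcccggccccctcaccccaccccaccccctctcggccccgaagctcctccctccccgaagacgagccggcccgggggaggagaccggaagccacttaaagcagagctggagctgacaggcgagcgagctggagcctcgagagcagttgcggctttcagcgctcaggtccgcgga
Arnt, chr3:95434140-95434439, plus strand: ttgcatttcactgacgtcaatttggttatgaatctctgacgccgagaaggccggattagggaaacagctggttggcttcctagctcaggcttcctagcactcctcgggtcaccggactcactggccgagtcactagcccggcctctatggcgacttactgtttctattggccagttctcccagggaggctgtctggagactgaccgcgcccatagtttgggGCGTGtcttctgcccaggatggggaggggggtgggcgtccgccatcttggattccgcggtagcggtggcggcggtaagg
The Ahrr window holds 3 matches to GCGTG, which begin at -107, -82 and -27 from the start site, and the last of them lies in 1 match to the longer form TNGCGTG. Tiparp has 1 match, on the opposite strand at -170, and Arnt has 1 at -29. Searched on both strands, GCGTG occurred in 32.4% of the 32851 RefSeq promoters of this length and TNGCGTG in 5.07%. The hypoxia response core ACGTG, which HIF factors read together with ARNT, occurred in 19.6% of promoters and in 0 of these 3. A match is a stretch of letters and no evidence of binding.

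Values below are normalised counts, that is, reads scaled by 1 factor per library. Recovered reads ran from 5093955 to 8851347 per library. Normalised counts summed to 7467917.6 in IEL TR replicate 1, against 5522792.6 to 6334506.8 in all others. That library also had the fewest genes above 0, at 18307. T-cell genes (Cd3e, Cd3d, Cd3g, Cd2, Lck and Cd4) summed to between 16251.77 and 21733.3 in every library. Cd8a was at 3363.92 to 6443.51 in DP libraries and at most 113.16 in all others, and Foxp3 at 66.19 to 163.61 in TR libraries and at most 39.88 in all others. The 3 IEL TR libraries spread more than the others, with a median SD over genes of 0.547 in log2 units against 0.305 to 0.349 in the other groups, and the test gave each group its own variance weight. In simulated data with these spreads, comparisons of epithelial TR cells with epithelial SP or DP cells made a larger share of false calls than the threshold allows. False were 12 of 22 calls against epithelial SP cells and 16 of 42 against epithelial DP cells. A fit of only the 2 groups compared made no calls there at all. Calls against epithelial TR cells are therefore less certain, and the shares of all genes called there come from the same fit. Simulated 2-fold changes were recovered in 11% of cases for epithelial DP against SP cells and in 9% for DP cells between sites. Against epithelial TR cells the share was 0% for SP and 0.5% for DP cells. Simulated 4-fold changes were recovered in 83%, 85%, 10% and 12.5%, in the same order. A gene without a call may therefore still differ between groups. Comparisons named here often share a group, so their results are not independent of each other.

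Ahr (ENSMUSG00000019256, GRCm38 chromosome 12, 35497974 to 35535038, minus strand) was lowest in epithelial DP cells. Its normalised counts there were 98.31, 116.67 and 76.27, a mean of 97.08 ± 20.23 (SD, n = 3). In lamina propria DP cells they were 328.83, 296.46 and 291.94, a mean of 305.7 ± 20.12 (SD, n = 3). The 2 DP groups did not overlap, as for 15.4% of tested genes in that direction. Ahr was 3.17-fold lower in the epithelium (log2 change -1.66 ± 0.28 SE, limma adjusted p = 0.00122). Of the 4 genes, Ahr alone passed the test between the DP groups, where 11.3% of all tested genes did. In bulk libraries, fewer cells that express a gene and less of its RNA in each cell cannot be told apart.

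The other epithelial groups held more Ahr than epithelial DP cells. In epithelial SP cells the normalised counts were 266.37, 205.49 and 188.35, and in epithelial TR cells 515.84, 221.36 and 252.7. Each of these 6 values exceeded each epithelial DP value. Against epithelial SP cells, Ahr in DP cells was 2.26-fold lower without overlap (log2 change -1.18 ± 0.28 SE), but the limma adjusted p was 0.143 over all genes, at an unadjusted p of 0.000732 and rank 79. In that comparison limma, edgeR and DESeq2 each called 0 of the 4 genes, limma called 0.291% of tested genes, and Ahr was the 1 member with an unadjusted p under 0.05. Of all tested genes, 6.33% were lower in DP cells without overlap. Leaving out LP SP replicate 2, which is not in the comparison but shares the variance estimate, brought the adjusted p to 0.0385. Against epithelial TR cells, Ahr was lower in DP cells without overlap, as were 13.6% of tested genes. The 3.18-fold difference (log2 change -1.67 ± 0.43 SE, limma adjusted p = 0.03) was the 1 call among the members, where 6.55% of genes were called. That call was lost when only the 2 groups were fitted (adjusted p = 0.0848), and without IEL DP replicate 3 or any 1 of the 3 IEL TR replicates, with a highest adjusted p of 0.112.

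In the lamina propria the 3 populations overlapped in Ahr. LP SP libraries held 479.2, 185.1 and 391.76 normalised counts and LP TR libraries 237.98, 244.98 and 350.63, around the LP DP values. Replicate 2 of LP SP is the low library of that group and lies under both other LP groups. None of the 3 comparisons among these groups called Ahr, with adjusted p from 0.723 to 0.963. Between sites, Ahr in SP cells had a log2 change, IEL minus LP, of -0.58 ± 0.3 SE (limma adjusted p = 0.257), which became -0.99 at an adjusted p of 0.0301 without LP SP replicate 2. In TR cells it was 0.17 ± 0.44 SE (adjusted p = 0.944). Averaged over the 3 populations, Ahr was 1.62-fold lower in the epithelium (log2 change -0.69 ± 0.2 SE, limma adjusted p = 0.0242), a call lost without IEL TR replicate 2 or 3 (adjusted p up to 0.11).

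**Figure D1:**
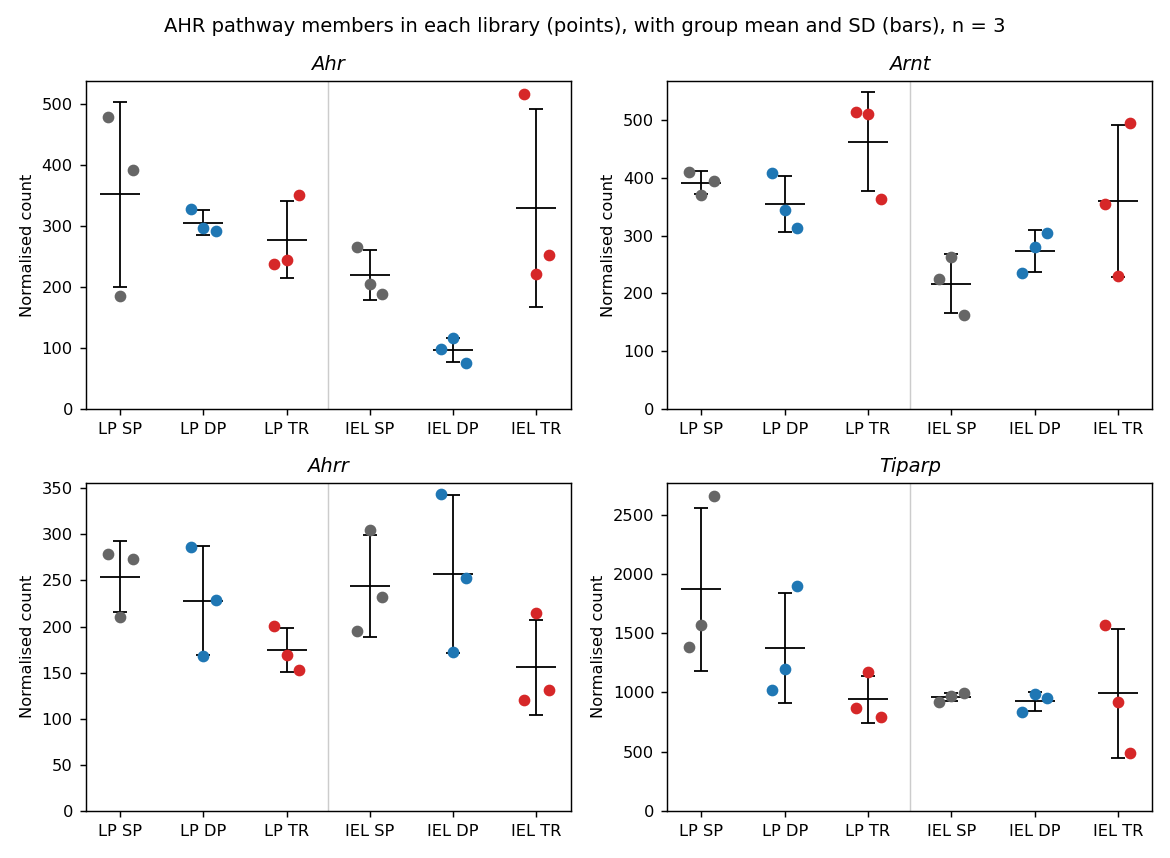
Normalised counts (linear axis from 0) of Ahr, Arnt, Ahrr and Tiparp in the 6 groups, lamina propria to the left of the grey line and epithelium to the right; points are libraries, the long bar is the group mean and the whiskers the SD (n = 3). The 3 epithelial DP libraries hold between 76.27 and 116.67 for Ahr, under all 15 other libraries.

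Whether the site effect on Ahr differed between populations was tested directly. The DP minus SP change was lower in the epithelium than in the lamina propria by 1.08 ± 0.41 SE on the log2 scale, at an unadjusted p of 0.0179 and a limma adjusted p of 0.721. For this term limma called 0% of tested genes, although 969 had an unadjusted p under 0.05, and edgeR and DESeq2 called 0 of the 4 members. The corresponding term for TR cells was 0.75 ± 0.53 SE for Ahr (adjusted p = 0.778), and it called 0 of the 4 members and 0.123% of genes. The DP minus TR change, compared between sites after the values were seen, differed by -1.83 ± 0.52 SE (unadjusted p = 0.003, limma adjusted p = 0.258), and 0.136% of genes passed. None of the 3 tests of a difference in site effect passed for Ahr.

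Summed markers of the gut epithelium ran higher in the epithelium, but the sites overlapped in DP and SP cells. Of 12 epithelial markers, 9 were above 0 in every epithelial DP library and 3 in every LP DP library, with summed normalised counts of 393.01 to 1181.18 and 256.54 to 438.85. The same sum was 353.49 to 703.98 in epithelial and 132.12 to 398.72 in LP SP libraries. In TR libraries it was 341.45 to 465.31 and 180.32 to 294.62. Above 0 in every library were 7 markers in epithelial and 3 in LP SP cells, but 2 in epithelial and 3 in LP TR cells. Alpi, an enterocyte phosphatase, was at 0 in every epithelial DP library, and Alpi, Apoa1, Krt19 and Vil1 were at 0 in every LP DP library. The part of epithelial RNA in the Ahr difference was not tested. A gene on the opposite strand, Gm48236, shares 127 exon bases with Ahr and is not in the table analysed here.

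Arnt (ENSMUSG00000015522, chromosome 3, 95434388 to 95497240, plus strand), the DNA-binding partner of AHR, was lowest in epithelial SP cells. Its normalised counts were 224.31, 262.98 and 162.05 there and 408.9, 370.2 and 394.07 in LP SP cells. All 3 epithelial values lay under all 3 LP values, as for 14.3% of tested genes in that direction. The log2 change was -0.88 ± 0.21 SE (limma adjusted p = 0.015). In this comparison 2 of the 4 genes were called, Arnt and Tiparp, against 9.29% of tested genes. The Arnt call was lost with only the 2 groups fitted (adjusted p = 0.0546), without group weights (0.0561), in edgeR (0.0565), and without LP SP replicate 3 or IEL SP replicate 3 (up to 0.0672).

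In DP cells Arnt also separated by site, with 235.08, 279.67 and 305.06 normalised counts in the epithelium and 407.17, 344.03 and 312.66 in the lamina propria. The DP groups did not overlap, as for 30.8% of tested genes, but the change of -0.37 ± 0.2 SE in log2 units had a limma adjusted p of 0.253. In TR cells the epithelial values of 354.05, 230.29 and 494.07 overlapped those of the lamina propria, 512.73, 509.85 and 362.81. Averaged over the 3 populations, Arnt was lower in the epithelium by 0.55 ± 0.14 SE in log2 units (limma adjusted p = 0.0126), and without IEL TR replicate 2 the adjusted p was 0.0774. Ahr and Arnt were the 2 members called in this averaged comparison, where 17.9% of genes were. Within sites, limma called Arnt in 0 comparisons between populations. The unadjusted p was under 0.05 in 1 of them, epithelial TR against SP cells (log2 change 0.69 ± 0.3 SE, limma adjusted p = 0.246), and DESeq2 called that one at 0.0385.

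Ahrr (ENSMUSG00000021575, chromosome 13, 74211118 to 74292331, minus strand), the repressor, varied least among the groups. Its group means ran from 155.9 ± 51.65 in epithelial TR cells to 256.7 ± 85.63 in epithelial DP cells (SD, n = 3), a 1.65-fold range, and 31.9% of tested genes had a smaller one. All neighbouring groups in the order of means overlapped. In the lamina propria, TR cells (200.12, 169.12 and 153.4 normalised counts) lay under SP cells (278.85, 210.48 and 273.53) without overlap, as did 11.9% of tested genes in that direction. The log2 change of -0.54 ± 0.28 SE had a limma adjusted p of 0.301. None of the 12 comparisons called Ahrr, at limma adjusted p from 0.301 to 0.992 and unadjusted p of at least 0.072. On the recovered reads, edgeR and DESeq2 made 0 calls of it as well. Its 1.65-fold range is under the 2-fold changes seldom recovered in simulated data, so the lack of a call does not show equal levels.

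Tiparp (ENSMUSG00000034640, chromosome 3, 65528410 to 65555518, plus strand), the ADP-ribosyltransferase, was the most abundant of the 4 genes and highest in LP SP cells. LP SP libraries held 1383.7, 1571.86 and 2660.01 normalised counts, a mean of 1872 ± 689 (SD, n = 3). Epithelial SP libraries held 923.29, 968.89 and 994.34, and LP TR libraries 872.94, 1168.92 and 791.36. Both of these groups lay wholly under LP SP cells, as for 14.3% of tested genes in epithelial SP cells and 11.9% in LP TR cells. Tiparp was lower in epithelial than in LP SP cells by 0.9 ± 0.27 SE in log2 units (limma adjusted p = 0.0491). It was lower in LP TR than in LP SP cells by 0.95 ± 0.28 SE (limma adjusted p = 0.0493), the 1 member called where 8.2% of genes were.

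Both Tiparp calls sat at the threshold. The site call was lost in 11 of 18 fits that each left out 1 library and the LP TR call in 12, with changes down to -0.62 and -0.66 and adjusted p up to 0.272 and 0.266, each of these without LP SP replicate 3. Both calls held without LP SP replicate 1, LP DP replicate 1 or 3, LP TR replicate 2, or IEL TR replicate 1 or 3, and the site call also without IEL TR replicate 2. They were also lost when only the 2 groups were fitted (adjusted p = 0.0701 and 0.0915), in edgeR (0.13 and 0.131) and in DESeq2 (0.0592 and 0.0532). In LP DP cells Tiparp stood at 1020.5, 1198.58 and 1902.33, overlapping LP SP. In epithelial DP cells it stood at 831.34, 986.3 and 954.25, under all LP DP values, as for 15.4% of tested genes in that direction. That DP site change of -0.52 ± 0.26 SE did not pass (adjusted p = 0.213), nor did the site change averaged over the 3 populations (-0.5 ± 0.18 SE, limma adjusted p = 0.0726), which passed without LP SP replicate 1, LP DP replicate 1 or IEL TR replicate 1, at 0.0171 at the lowest. Epithelial TR libraries ranged from 486.22 to 1571.68. An antisense gene, 4931440P22Rik, shares 223 exon bases with Tiparp and itself held 37.23 to 74.59 normalised counts per library. Whether counting used strand is not given in the sources used here, so reads from the shared bases cannot be assigned.

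Beside epithelial DP against SP cells, described above, 3 pairwise comparisons had none of the 4 genes past the threshold in limma, edgeR or DESeq2. They were LP DP against SP cells, LP DP against TR cells and TR cells between sites, and in these 0 of 4 had an unadjusted p under 0.05 in limma. Over all tested genes, limma called 0.789%, 13.8% and 1.81% in these 3 comparisons.

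**Figure D2:**
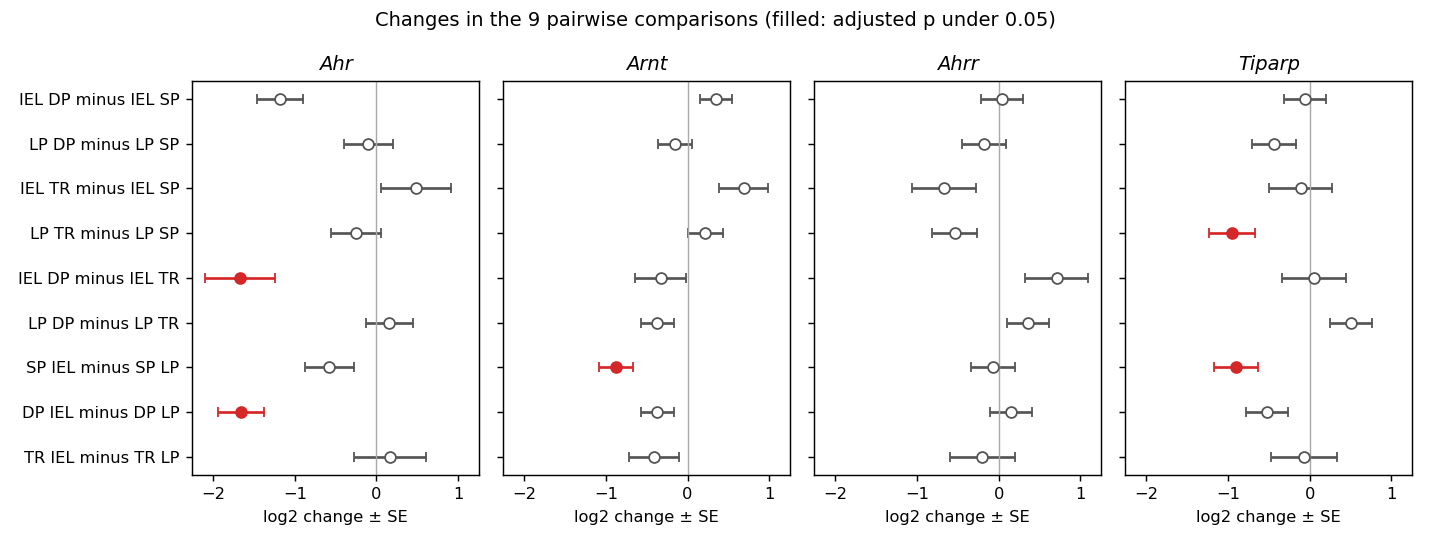
Log2 changes (first-named minus second-named group) of the 4 genes in the 9 pairwise comparisons, with bars of 1 SE on each side; filled red points passed a limma adjusted p under 0.05. Ahr passed for DP cells between sites (-1.66) and for epithelial DP against TR cells (-1.67), Arnt for SP cells between sites (-0.88), and Tiparp for LP TR against SP cells (-0.95) and SP cells between sites (-0.9); Ahrr passed in none.

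Per kilobase of exon, Tiparp exceeded the other members in every group. Its group means were 212 to 430 normalised counts per kilobase, against 15.8 to 57.1 for Ahr, 27 to 57.7 for Arnt and 16.5 to 27.2 for Ahrr. By mean level, Tiparp lay above 94.5% of tested genes, Arnt above 78.6%, Ahr above 73.6% and Ahrr above 69.4%, without regard to length. The highest group mean exceeded the lowest 3.63-fold for Ahr, 2.13-fold for Arnt and 2.03-fold for Tiparp, and 77.2%, 54% and 50.6% of tested genes had a smaller ratio. In the order of groups, the only neighbours without overlap were epithelial SP and DP cells for Ahr and LP DP and epithelial DP cells for Arnt.

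The ratio of repressor to receptor was highest in epithelial DP cells. There the ratio of Ahrr to Ahr per kilobase was 2.28, 0.968 and 2.17 in the 3 libraries. It ran from 0.479 to 0.967 in epithelial SP libraries and from 0.153 to 0.635 in epithelial TR libraries. In the lamina propria it ran from 0.38 to 0.742 for SP, from 0.37 to 0.569 for DP and from 0.286 to 0.549 for TR libraries. The lowest epithelial DP library and the highest epithelial SP library differed only in the third digit. The ratio of Arnt to Ahr was 1.84 to 3.08 in epithelial DP libraries and 0.528 to 1.66 in all others. These ratios are descriptions that follow from the Ahr values above and were not tested. Across all 18 libraries the members were only loosely related, with Pearson's r of log2 values of 0.4 for Ahr and Arnt, 0.379 for Ahr and Tiparp, -0.309 for Ahr and Ahrr, -0.319 for Arnt and Ahrr, 0.212 for Ahrr and Tiparp and 0.075 for Arnt and Tiparp. The libraries share groups and depth, so no p is given.

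**Figure D3:**
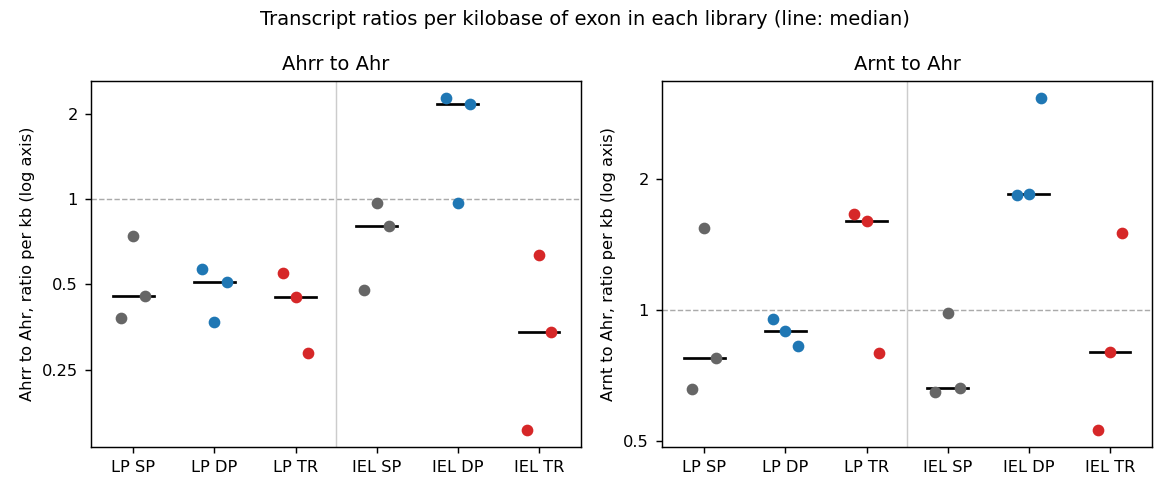
Ratios of transcripts per kilobase of exon in each library (points; log axes) with the group median (line), for Ahrr to Ahr at left and Arnt to Ahr at right; the dashed line marks equal amounts. Epithelial DP libraries reach 2.28 and 3.08, and no other library is above 0.967 at left or 1.66 at right.

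The receptor's cytosolic partners had no call in the main pairwise fits. Of 7 genes of the complex and its turnover, all tested, limma called 0 in each of the 9 pairwise comparisons, and 9 of these 63 tests had an unadjusted p under 0.05. Over all tested genes, 0.291% to 13.8% were called in these comparisons, so 0 of 7 in any 1 of them is near the background. Hsp90ab1 stood at 13400 ± 2927 in epithelial DP and 14410 ± 2530 in LP DP cells, and Ptges3 (p23) at 3410 ± 660 and 3264 ± 351.6 (SD, n = 3). The median change of the 7 genes between the DP groups was 0.2 in log2 units, against 0.05 over all tested genes. Without IEL TR replicate 1, the same comparison had 1 call among these 7, and the site comparison averaged over the 3 populations had 2.

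Among 13 coactivators and corepressors, the genes that differed did so mostly with the TR populations. Ncoa3, Ncoa7 and Nrip1 were higher in TR than in SP cells in both sites, so 3 of 13 were called there against 8.2% of all genes in the lamina propria and 4.95% in the epithelium. Ncoa3, a histone acetyltransferase-recruiting coactivator of the p160 family, held 2801 ± 203.2 normalised counts in LP TR cells, 1526 ± 219.3 in LP SP cells and 1173 ± 98.94 in LP DP cells. Ncoa7 held 968.3 ± 53.8 in LP TR cells and 137.2 ± 43.88 in LP SP cells (log2 change 2.85 ± 0.41 SE, limma adjusted p = 0.000342). In the epithelium, the Ncoa7 difference between TR and SP cells lost its call when only those groups were fitted (adjusted p = 0.0661). Nrip1, a corepressor of nuclear receptors, was lower in the epithelium than in the lamina propria in DP cells (490.3 ± 76.94 against 1806 ± 257.5, limma adjusted p = 0.000115) and in SP cells (480.9 ± 64.61 against 1388 ± 662.2). In SP cells between sites 3 of 13 were called, Nrip1, Med1 and Ep300, against 9.29% of all genes, and with only those groups fitted 0 were (0.0566, 0.0817 and 0.125). Med1, a Mediator subunit, was higher in epithelial DP cells (2173 ± 104.1 against 1376 ± 106, limma adjusted p = 0.0013). Nrip1 and Med1 were the 2 of 13 called between the DP groups, where 11.3% of all genes were. The list's median change between them was -0.08, against 0.05 over all genes. In the comparison of LP DP with LP TR cells, where 13.8% of tested genes were called, Ncoa1 was the fourth of 13 called, higher in DP cells (limma adjusted p = 0.0447). Markers of B and plasma cells moved with the TR cells of the lamina propria, in these differences and in those of the lists that follow. In the epithelium the TR libraries overlapped both other groups. The summed level of the 7 markers was 101.69 to 573.28 normalised counts in LP TR libraries, against 2.34 to 22.02 in LP SP and 19.54 to 50.86 in LP DP libraries. In the epithelium it was 9.45 to 264.01 for TR, 2 to 27.15 for SP and 20.31 to 32.27 for DP libraries. Of the 7, 4 were above 0 in every LP TR library and Sdc1 was at 0 in all of them, while 3 were above 0 in every epithelial TR library and Igj was at 0 in all of those. Their part in the TR differences was not tested.

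The family of AHR and ARNT, the bHLH-PAS proteins, includes clock and hypoxia factors, and among them Per1 was lower in the epithelium in all 3 populations. Of 10 listed genes, 8 were tested, and Npas2 and Sim2 fell under the filter. Per1, a clock repressor, held 146.2 ± 19.23 normalised counts in epithelial SP and 147 ± 23.77 in epithelial DP cells, against 1049 ± 174.4 and 1208 ± 106.1 in the lamina propria. Its log2 change was -2.83 ± 0.2 SE in SP cells (limma adjusted p = 2.4e-07) and -3.04 ± 0.19 SE in DP cells (5.1e-08). No epithelial library reached any LP library. Of all tested genes, 14.3% in SP and 15.4% in DP cells were lower in the epithelium without overlap. In TR cells Per1 stood at 192.9 ± 91.31 against 705 ± 27.47 (limma adjusted p = 0.00216), a call lost when only the 2 groups were fitted (0.126), in a comparison that called 1.81% of genes. Per3, its paralogue, had its lowest means in TR cells. Its site changes of 1.35 ± 0.53 SE in SP cells and 1.29 ± 0.5 SE in DP cells, higher in the epithelium, did not pass with all groups fitted (limma adjusted p = 0.133 and 0.111) but did with only the 2 groups fitted (0.00422 and 0.0426). It held 1197 ± 201.6 in epithelial DP and 884.4 ± 74.96 in epithelial SP cells and 89.57 ± 82.95 in epithelial TR cells. In the lamina propria the corresponding means were 509.2 ± 198.5, 348 ± 52.31 and 78.19 ± 51.93. Per3 was lower in TR than in SP cells in both sites (limma adjusted p = 0.00949 in the lamina propria and 0.00935 in the epithelium), calls that were lost with only the 2 groups fitted (0.067 and 0.0588). Clock, at group means from 46.89 to 155.7, was called in 0 pairwise comparisons.

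Hif1a and Epas1, which encode hypoxia-inducible partners of ARNT, had their highest mean in LP TR cells. Hif1a held 1728 ± 190.6 in LP TR and 1139 ± 249.9 in epithelial TR cells, against 456.3 ± 213.8 and 209.6 ± 33.7 in the corresponding DP cells. Both DP-to-TR differences passed (limma adjusted p = 0.000159 and 0.00234). Hif1a was lower in the epithelium in SP cells (268.9 ± 86.44 against 899.5 ± 176.5, limma adjusted p = 0.00105) and in DP cells (adjusted p = 0.0245, and 0.105 with only those groups fitted). Epas1 held 215.9 ± 64.41 in LP TR and 38.2 ± 12.58 in LP DP cells (limma adjusted p = 0.00142). Arnt2, a paralogue of ARNT known mainly from neurons, did not exceed 46.26 in any library. In the comparison of LP DP with LP TR cells, 5 of the 8 tested family members were called, against 13.8% of all genes. With only those groups fitted 4 were, since Arnt2 lost its call (0.124).

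Hypoxia-response genes, the ARNT branch that AHR does not use, were compared next. Of 10 genes, all tested, 3 were higher in LP TR than in LP SP cells and 3 lower in LP DP than in LP TR cells, and 1 was called in the epithelium for DP against TR cells. Over all genes the shares called were 8.2%, 13.8% and 6.55%, so the single epithelial call is near the background. With only the groups fitted, 2 were called in LP TR against SP cells, where Bnip3 was lost (0.188), and 4 in LP DP against TR cells. Ndrg1, a stress-induced protein, held 316.8 ± 55.88 in LP TR cells, 34.04 ± 9.704 in LP SP cells and 7.127 ± 0.8474 in epithelial TR cells. It was lower in epithelial than in LP TR cells by 5.28 ± 1.05 SE in log2 units (limma adjusted p = 0.0164). Ddit4, an inhibitor of mTOR signalling, held 352.9 ± 38.08 in LP TR cells and 76.18 ± 3.356 in LP SP cells (limma adjusted p = 0.00422). Pdk1, a brake on pyruvate use in mitochondria, held 436.9 ± 84.12 in epithelial TR and 134.7 ± 15.45 in epithelial DP cells (limma adjusted p = 0.0218).

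Most xenobiotic-metabolising targets of AHR were at or near 0. Of 14 listed genes, 8 did not pass the filter. Cyp1a1, the enzyme usually read as a marker of AHR activity, was at 0 in all 18 libraries, where a count of 0 allows up to 3 reads, or 2.06 to 3.73 normalised counts per library. This limit covers counting error only. Cyp1a2 was above 0 in 2 libraries, with at most 2.43, and Cyp1b1 in 2 libraries, with at most 8.11. Aldh3a1, Gsta1, Gsta2, Ugt1a6a and Ugt1a6b reached at most 5.01 in any library. Of the 6 that were tested, 2 are members described above. Nqo1, a quinone reductase under both AHR and NRF2, held 12.17 to 23.63 in LP TR cells and at most 0.75 in LP SP cells (limma adjusted p = 0.0135). Nfe2l2, which encodes NRF2, was lower in the epithelium in SP cells (328.3 ± 26.45 against 631.5 ± 67.23, limma adjusted p = 0.00206) and in DP cells (270.3 ± 49.25 against 593.8 ± 59.3, limma adjusted p = 0.000221). In LP TR against LP SP cells, 1 of the 6 was called higher, Nqo1, and 2 lower, against 8.2% of all genes. The 2 were Tiparp and Nfe2l2 (log2 change -0.76 ± 0.17 SE, limma adjusted p = 0.0116). The list's median change there was -0.65, against -0.01 over all genes. The median change of the 6 tested genes between the DP groups was -0.83, against 0.05 over all genes. Nfe2l2 was the 1 of 6 called there, where 11.3% of all genes were, so that count is near the background.

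T-cell genes that other studies tie to AHR differed by population and, in SP cells, by site. Of 11 listed genes, 10 were tested, and Il17a was above 0 in 4 libraries. In the lamina propria 4 of 10 were higher and 1 lower in TR than in SP cells, with a median log2 change of 1.84 against -0.01 over all genes, of which 8.2% were called. Between sites 4 of 10 were lower in epithelial than in LP SP cells, Maf (limma adjusted p = 2.8e-05), Il22, Il10 and Kit, against 9.29% of all genes. With only those groups fitted Maf alone was called, and Il10 and Kit were at 0.0829 and 0.11. In DP cells Maf was the 1 of 10 called between sites (limma adjusted p = 0.000811), near the 11.3% of all genes. Maf, a transcription factor of interleukin-10 producing T cells, held 4048 ± 336.4 in LP TR, 1383 ± 242.7 in LP SP and 257.6 ± 50.97 in LP DP cells. In the epithelium its means were 3613 ± 393.8, 531.9 ± 76.5 and 135.3 ± 6.21 in the same order. Maf was the 1 gene of the 8 lists called for epithelial DP against SP cells (log2 change -1.96 ± 0.14 SE, limma adjusted p = 2.61e-06). Of all tested genes, 0.291% were called there. In LP DP against SP cells Maf was called along with Il22, against 0.789% of all genes. Il10 held 1121 ± 396.7 in LP TR and 55.34 ± 6.711 in LP SP cells (limma adjusted p = 0.0134). Gpr15, a homing receptor for the large intestine, held 340.8 ± 138.1 and 12.34 ± 5.132 (limma adjusted p = 0.00208). Entpd1 (CD39), an ectoenzyme that degrades ATP, held 200.1 ± 44.75 and 50.52 ± 29.45 (limma adjusted p = 0.00757).

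Il22, a cytokine often linked to AHR, was highest in LP SP libraries, with 76.88, 154.15 and 526.06 normalised counts as lowest, middle and highest. It was at 0 in all 6 TR libraries, at most 13.4 in LP DP cells, at most 39.05 in epithelial SP cells and at most 0.83 in epithelial DP cells. The limma adjusted p was 0.00195 for LP TR against LP SP cells, 0.0345 for LP DP against LP SP cells and 0.0142 for epithelial against LP SP cells. The DP and site calls were lost when only those groups were fitted (0.114 and 0.0639). Markers of group 3 innate lymphoid cells moved with it. Their summed level without Id2, which was left out after its values were seen, ranged from 266.58 to 768.59 in LP SP libraries, against 13.18 to 68.03 for LP DP and 40.18 to 64.66 for LP TR. In the epithelium it ranged from 16.97 to 196.27 for SP, 14.88 to 36.41 for DP and 0 to 36.59 for TR. Il22 itself, Il23r and Kit are on that list and also among the 11 genes here. In LP SP cells 5 of its 7 genes were above 0 in every library, and Ncr1, a defining marker of one subset of these cells, was at 0 in all. The sum of 6 markers of stroma and endothelium was also highest in LP SP libraries, at 93.3 to 117.07 normalised counts against 1.24 to 75.59 in all other libraries. In LP SP libraries it came only from Col1a1 and Pecam1, since Col3a1, Dcn, Pdgfra and Cdh5 were at 0 in all. Only 1 of the 6 was above 0 in every LP SP library. The part of either marker list in the Il22 values, and in the Tiparp values of the same LP SP libraries, was not tested beyond that.

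Among relatives of TIPARP, Zc3hav1 and Parp14 differed by site in opposite directions. Of 13 listed relatives, all tested, 2 were higher and 1 lower in the epithelium in both the SP and the DP comparison, against 9.29% and 11.3% of all genes. With only the groups fitted 2 were called in SP cells, where Parp14 was lost (0.0554). In DP cells 3 still were, with Parp11 lost (0.125) and Parp10 gained (0.0231). Zc3hav1, the zinc-finger antiviral protein, held 4635 ± 239.8 in epithelial DP and 6463 ± 630.6 in LP DP cells (limma adjusted p = 0.00109) and 4638 ± 271.9 and 8361 ± 554.9 in SP cells (6.63e-06). Parp14, an interferon-inducible member, moved the other way, with 572.4 ± 46.69 in epithelial and 333.2 ± 47.55 in LP DP cells (limma adjusted p = 0.0041). Parp9, another interferon-inducible member, held 1176 ± 535.3 in epithelial TR and 309.5 ± 82.4 in epithelial DP cells (limma adjusted p = 0.00565, and 0.0544 with only those groups fitted).

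Genes of ligand supply and uptake showed 1 difference in all 3 populations. Slc3a2, the heavy chain of the amino-acid transporter that carries tryptophan and kynurenine, held 782.1 ± 42.18 in epithelial and 3734 ± 409.3 in LP SP cells (log2 change -2.25 ± 0.17 SE, limma adjusted p = 5e-07). In DP cells it held 944.2 ± 175.5 and 3419 ± 825 (limma adjusted p = 2.7e-06) and in TR cells 901.4 ± 237.8 and 3251 ± 216.8 (0.00108). No epithelial library overlapped the lamina propria. Within SP, DP and TR cells taken alone, 14.3%, 15.4% and 11.1% of tested genes were lower in the epithelium without overlap. Its light chain Slc7a5 did not exceed 31.94 in any epithelial or 101.93 in any LP library and was called only in the averaged comparison (log2 change -2.01 ± 0.4 SE, limma adjusted p = 0.0026). Of the 14 listed genes, 11 were tested. The tryptophan-degrading enzyme gene Ido1 did not exceed 39.39 in any library. Between the DP groups 2 of the 11 were called, Slc3a2 and Kynu, near the 11.3% of all genes, with a list median of -0.05 beside 0.05 over all genes. Kynu, at means of 5.147 and 17.13, lost its call with only the 2 groups fitted (0.188).

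**Figure D4:**
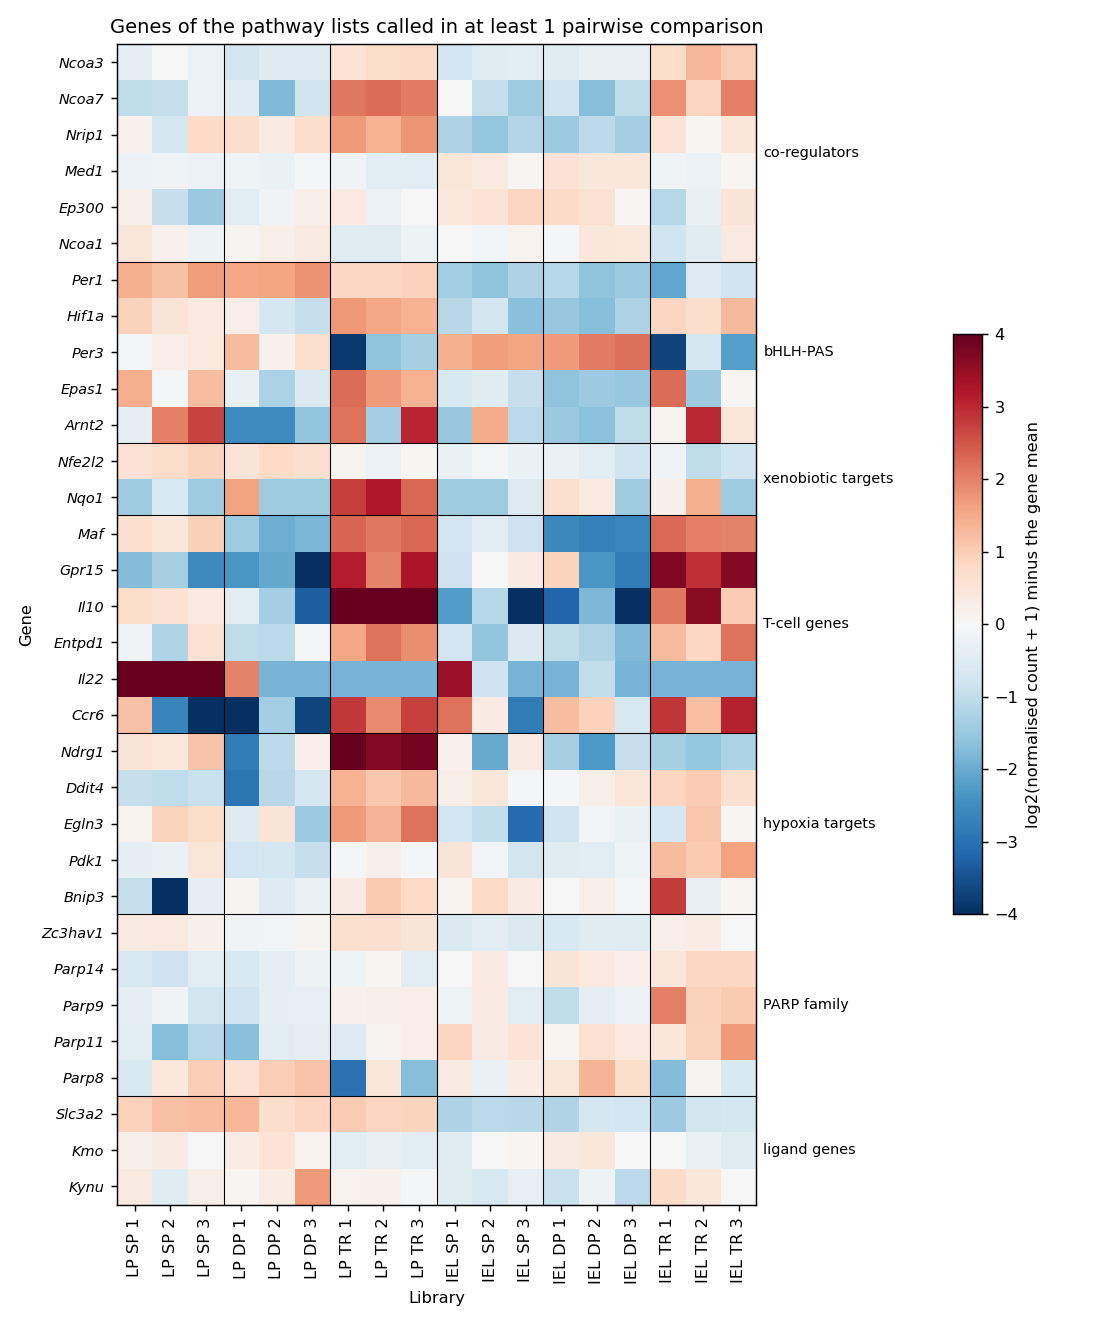
Genes of the 8 pathway lists that passed the test in at least 1 pairwise comparison (rows, grouped by list) in the 18 libraries (columns); colour is log2(normalised count + 1) minus the gene's mean over all libraries, from -4 (blue) to 4 (red), with values beyond drawn at the end colours. Per1 and Slc3a2 are lower in every IEL library than in every LP library, and Maf is highest in the 6 TR libraries.

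The genes whose pattern over the 18 libraries was most like that of each member were named by Pearson's correlation of log2 values among 8214 genes with a mean of at least 50. For Ahr they were Rps6 (r = 0.911), Rps4x (0.898), Eef1b2 (0.881), Rpl9 (0.87) and Rps20 (0.831), ribosomal proteins and a translation elongation factor. Without the 2 libraries farthest from the Ahr median, both of epithelial DP cells, Rps6 had r = 0.837, and without IEL TR replicate 1 it had 0.895. The range of Rps6 was narrow, from 4455.02 to 6408.59 normalised counts, while Ahr ran from 76.27 to 515.84. IEL TR replicate 1, highest in both, also had the highest normalised total. IEL DP replicates 2 and 3 had the lowest totals, 5522792.6 and 5539438.0. The part of scaling in this likeness was not tested. Ribosomal protein genes have many processed copies that can share their reads, so these levels are uncertain. For Arnt the genes were Cep120 (0.898), ENSMUSG00000095308 without a symbol (0.896), Tpp2 (0.879), Acot2 (0.836) and Tmem50b (0.833). For Ahrr they were Trim44 (0.84), Sod2 (0.798), Chst11 (0.787), Wipf1 (0.783) and Atg3 (0.776), and for Tiparp AI854703 (0.883), Rnf19b (0.812), Dtx4 (0.803), Arl15 (0.802) and Epb4.1 (0.785). By Spearman's correlation 3, 4, 0 and 3 of these 5 remained in the top 5 for Ahr, Arnt, Ahrr and Tiparp. These are the highest of many correlations over libraries that share groups, and none was tested.

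**Figure D5:**
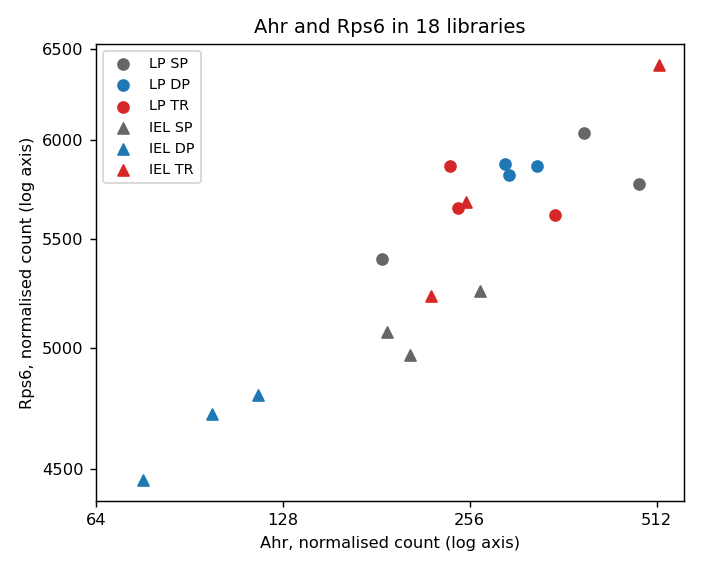
Ahr against Rps6 in normalised counts (log axes) over the 18 libraries, with circles for the lamina propria, triangles for the epithelium and colours for the populations. The 3 epithelial DP libraries are lowest in both genes, down to 76.27 and 4455.02, and IEL TR replicate 1 is highest in both, at 515.84 and 6408.59.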

How the data were processed

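RNA was measured by sequencing in 18 libraries, 3 in each of 6 groups taken from the labels. Per the labels, sorted cells were lysed in guanidine thiocyanate, RNA was purified on beads and libraries were made with Nextera XT. TopHat, HTSeq and the mm10 build (GRCm38) are named without versions in the submitters' processing notes. The signal deposited by the authors is 1 normalised count per gene and library. In each library 100% of values above 0 were whole multiples of 1 step, within 0.1 of a step, which gave back whole reads. How the scaling factors were computed is not given in the sources used here.

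Genes reaching 10 in 3 or more libraries were fitted as log2(value + 1) in limma 3.58.1 (R 4.3.3), with trended, robust variance and 1 variance weight per group. Log2 changes are on that scale. The 9 pairwise comparisons, an average over populations and 2 site interactions were tested, with Benjamini-Hochberg adjustment over all 15472 genes in each and a threshold of 0.05. An exact permutation test of 3 libraries against 3 can reach 0.1 at the lowest and was not used. Adjusted p-values come from limma where no tool is named. A whole-read fit in edgeR 4.0.16 and in DESeq2 1.42.0, other scalings, weights and filters, a replicate block and leaving out each library were the alternatives. The fitting code was tested on simulated data with the spread of each group, where false calls exceeded the threshold's share in the comparisons of epithelial TR with epithelial SP or DP cells and not in the others simulated.

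The 4 genes, the 8 pathway lists and the 6 marker lists were chosen with earlier results of these data known. From each list the genes called in at least 1 pairwise comparison, at most the 6 with the smallest adjusted p, were eligible to be named, along with the 5 genes most like each member. Genes named beyond that rule (Hsp90ab1, Ptges3, Clock, Slc7a5, Ido1, Cd8a, Foxp3 and the genes under the filter) were picked after their values were seen. Some listed genes are counted in their lists but not reported by name here. Positions and exon lengths are from GENCODE M21, where 36639 of the 38392 identifiers were found.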

Additional observations from a re-analysis of the deposited data

How the results depend on the processing

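Results depended on the processing as follows. Ahr in DP cells between sites passed under all 9 alternatives (adjusted p 0.000229 to 0.0116) and without each of the 18 libraries (change -1.81 to -1.5). With only the groups compared, the counts of members called fell to 0 for LP TR against SP, IEL DP against TR and the SP site comparison. Without group weights or in edgeR they were 0 for LP TR against SP and for the SP site comparison. With no filter on low values or in DESeq2 they were 0 and 1, with quantile normalisation 1 for the SP site, and DESeq2 gave 1 for IEL TR against SP, where Arnt passed (0.73, adjusted p = 0.0385).

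Calls were lost for Ahr in IEL DP against TR with only the groups (-1.67), and for Arnt in SP cells between sites without weights, with only the groups and in edgeR (-0.88 in each). Tiparp in LP TR against SP was lost without the filter, without weights and with only the groups (-0.95 in each), in edgeR (-1.0) and in DESeq2 (-0.99). Tiparp in SP cells between sites was lost in the first 3 of these (-0.90), under quantile normalisation (-0.73), in edgeR (-0.99) and in DESeq2 (-0.96). Tiparp reversed in edgeR and DESeq2, with no call, for IEL TR against SP (0.02 and 0.04), IEL DP against TR (-0.09 and -0.10) and TR cells between sites (0.04 and 0.07). The cause was not tested.

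Leaving out 1 library at a time moved the log2 changes over these ranges. For Ahr they were -1.32 to -1.02 (IEL DP against SP), -0.5 to 0.18 (LP DP against SP), -0.66 to 0.02 (LP TR against SP), -1.91 to -1.3 (IEL DP against TR), -0.99 to -0.31 (SP site), -0.21 to 0.4 (TR site) and -0.83 to -0.6 (averaged site). For Arnt they were -1.03 to -0.68 (SP site) and -0.64 to -0.46 (averaged site). For Ahrr they were -0.2 to 0.3 (IEL DP against SP), -0.36 to 0.02 (LP DP against SP), -0.25 to 0.07 (SP site), -0.09 to 0.4 (DP site), -0.13 to 0.04 (averaged site), -0.02 to 0.48 (DP interaction) and -0.38 to 0.05 (TR interaction). For Tiparp they were -0.11 to 0.01 (IEL DP against SP), -0.53 to 0.32 (IEL TR against SP), -1.13 to -0.66 (LP TR against SP), -0.38 to 0.46 (IEL DP against TR), -1.09 to -0.62 (SP site), -0.48 to 0.37 (TR site) and -0.63 to -0.35 (averaged site). The members called ranged from 0 to 1 for IEL DP against SP, IEL DP against TR and LP TR against SP, and from 0 to 2 for the SP site and 0 to 3 for the averaged site.

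The main fit did not pair libraries by replicate number, since the labels do not say what the number marks. The 45 residual correlations between libraries of the same number were low (0.00053 to 0.0887), and 0 exceeded 0.1. Still, all were above 0, and all 18 libraries correlated best with their own number. Libraries of the same number thus shared something that the main fit leaves out, and its source was not tested. The replicate block changed no call of a member (Ahr in DP cells between sites -1.66, adjusted p = 0.00202). It moved the genes called from 122 to 174 for LP DP against SP, from 1268 to 1532 for LP TR against SP and from 19 to 37 for the TR interaction. Depth limits the lowest genes, where a count of 0 allows up to 3 reads.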
